A study of Mus musculus with 27 samples.

Results

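Atrial and sinus venosus cardiomyocytes are the heart muscle cells of the venous pole, where blood enters the embryonic heart. They were studied here in single-cell RNA libraries of mouse hearts at stage E11.5 (E stands for embryonic day). A barcode was taken when under 10% of its unique molecular identifiers (UMIs, each marking 1 captured RNA molecule) were haemoglobin and at least 1% were the pan-cardiac muscle genes Tnnt2, Actc1, Myl7, Myl4 and Tnnc1 together. It also had to hold under 10 UMIs per 10000 of Myl2, the ventricular myosin light chain, at least 2 UMIs of Shox2, Vsnl1 and Nr2f1 together, and under 3 UMIs of the endothelial genes Pecam1, Cdh5 and Egfl7 together. In all, 71 of 6032 barcodes met the rule: 25 of 2563 in the library labelled +/+ and 46 of 3469 in the library labelled F/F.

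The study examined mice of strain C57BL/6 that lack Hand2os1, also called Hand2as or Uph, a long non-coding RNA gene beside the gene of the transcription factor Hand2; its title names precise Hand2 expression as the question. Allele F is the full-length deletion. Both single-cell libraries came from E11.5 embryos of heterozygote intercrosses, the +/+ library from wild-type and the F/F library from homozygous deleted hearts; cells of 6 hearts were pooled into 1 library per genotype after trypsin digestion and sorting of living cells by a viability dye. Each genotype has 1 such library, so no test between them was made, and every interval below covers counting error only. Bulk RNA libraries of the same strain gave values with replicates: whole E11.5 hearts (3 F/+, 3 F/F) and E16.5 ventricles (3 F/+, 3 F/F). In the bulk comparisons the controls carry 1 deleted allele, while the single-cell control carries none.

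The sinus venosus collects venous blood and passes it to the atria, and its myocardium gives rise to the sinoatrial node, the pacemaker of the heart. Shox2 is a homeobox transcription factor of the sinus venosus that keeps pacemaker muscle from taking on the programme of working muscle. Nr2f1 and Nr2f2 (COUP-TFI and COUP-TFII) are orphan nuclear receptors of atrial muscle, Vsnl1 is a calcium sensor protein found at the venous pole, and Myl7 and Myl4 are the myosin light chains of early and atrial muscle. Working atrial muscle makes the natriuretic peptide Nppa, which developing pacemaker muscle lacks.

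The membership rule read the UMI counts of the same cells, so the values of its genes describe the cells and test nothing. Among cardiomyocytes with Myl2 under the limit, 132 barcodes had 0 UMIs of the Shox2, Vsnl1 and Nr2f1 trio and 18 had 1, all of them outside; 4 members had 2 such UMIs and 11 had 3. For cardiomyocytes with at least 2 trio UMIs, Myl2 reached 5.57 per 10000 in the highest member and started at 12.7 in the lowest cardiomyocyte outside. Of the members, 15 carried UMIs of 1 trio gene, 36 of 2 and 20 of all 3. The median Myl2 of members was 1.11 per 10000 in the +/+ library and 1.88 in the F/F library. That is close to the level in haemoglobin-rich barcodes, 0.621 and 1.60, which should not make Myl2, and far below the 91.2 and 87.6 of the other cardiomyocytes.

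**Figure D1:**
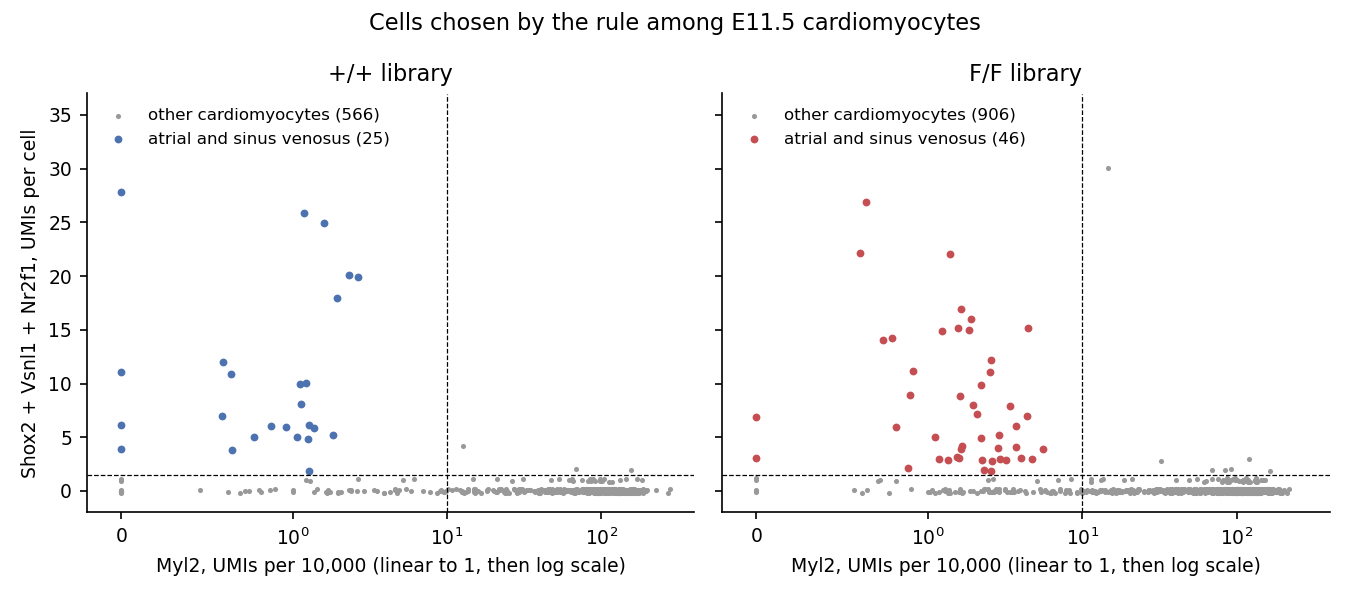
Each point is 1 cardiomyocyte barcode of the +/+ (left) or F/F (right) library, with Myl2 UMIs per 10,000 on the x axis (linear to 1, then log scale) and summed UMIs of Shox2, Vsnl1 and Nr2f1 on the y axis, and dashed lines at the limits. The 25 and 46 coloured members lie left of the Myl2 limit, and no member exceeds 5.57 Myl2 UMIs per 10,000.

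Members were well covered. Their median was 11324 UMIs and 3309 genes per cell in the +/+ library and 12700.5 UMIs and 3255 genes in the F/F library, against 15227 and 14707 UMIs in other cardiomyocytes. Summed over members, 308095 and 618239 UMIs underlie the CPM values (each gene's UMIs scaled to the same fixed total in every class) given below. Mitochondrial genes took a median of 6.23% and 5.45% of a member's UMIs, and haemoglobin 1.48% and 1.57%. The libraries shared 18 barcode sequences, none of them a member, and a doublet score marked 3 members (1 and 2). Xist, expressed from the inactive X chromosome of females, stood at 334 and 729 CPM in members, and the Y-linked gene Ddx3y had 4 UMIs in +/+ members and 0 in F/F members. The pools may therefore differ in sex, though the Ddx3y UMIs of members are few. Sex and genotype cannot be told apart in the single-cell comparison.

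The label was checked on marker lists. Markers of ventricular muscle summed to 266 and 395 CPM in members, against 13104 and 12019 in other cardiomyocytes, with 2 of 8 at 0 in each library; Myl2, the most abundant of them, was part of the rule. Immune markers were at 0 for 5 of 5 genes in the +/+ library and 3 of 5 in the F/F library. Endothelial and endocardial markers summed to 143 and 90.6 CPM, with 3 of 7 at 0 in each library, and were limited by the rule. These sums were above the 24.5 and 31.1 CPM of other cardiomyocytes. Mesenchymal markers summed to 276 and 175 CPM, above the 48.8 and 48.7 CPM of other cardiomyocytes, and epicardial markers to 97.4 and 76.0 CPM against 17.5 and 34.4. Smooth muscle and wall markers (860 and 669.6 CPM) and outflow markers (438 and 286 CPM) were no higher than in other cardiomyocytes. Markers of the atrioventricular canal, the muscle between atria and ventricles, summed to 87.6 CPM in +/+ and 257 CPM in F/F members. Other cardiomyocytes had 172 and 185 CPM, so the sum was lower in +/+ members and higher in F/F members. In the F/F library 3 cells held 33 of the 52 UMIs of Bmp2 and 3 held 30 of the 45 UMIs of Rspo3. Both are markers of that region, and the F/F levels of both rest on a few cells. The remainder of the F/F sum was not examined in this way.

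Members made up 0.975% (95% exact Clopper-Pearson interval 0.632 to 1.44) of barcodes in the +/+ library and 1.33% (0.972 to 1.76) in the F/F library. Among cardiomyocytes the shares were 4.21% (2.74 to 6.15; 25 of 594) and 4.80% (3.53 to 6.35; 46 of 959). The intervals overlap on both denominators, and with 1 pool of hearts per genotype the spread between hearts is unknown.

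Relative to the other cardiomyocytes of the same library, the genes highest in members included some regulators of the venous pole and atrium. The lowest included ventricular genes. Cav1, Nr2f2 and Wnt2 were over 30-fold higher in both libraries, and Myh7, Pln, Irx4 and Hey2 were among the lowest. At least 2-fold higher in both libraries were 38 of 1442 genes with 30 or more UMIs in members (2.64%), and at least 2-fold lower were 114 of 9939 genes with 30 or more UMIs in other cardiomyocytes (1.15%). Since the cells were chosen by values in these same cells, these ratios are a description with no test.

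Among transcription factors, Nr2f2, the receptor required for atrial identity, stood at 221 and 131 CPM in members (+/+ and F/F library, in that order throughout) and 3.47 and 3.66 CPM in other cardiomyocytes. Its log2 ratio was 5.99 (5.36 to 6.65) in the library labelled +/+ and 5.16 (4.63 to 5.70) in the library labelled F/F (95% counting interval in parentheses). Tbx5, a T-box factor of the atria and left ventricle, was at 162 and 136 CPM against 29.9 and 24.8, log2 ratios 2.44 and 2.45. Tbx5 was thus present in other cardiomyocytes at a lower level, and Nr2f2 was close to absent there. Tbx18, a T-box factor of sinus venosus progenitors, was at 110.4 and 38.8 CPM against 12.9 and 13.5.

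Osr1, a zinc-finger factor of the posterior second heart field that supplies the venous pole, had 32 and 26 UMIs in members against 1 and 2 in all other cardiomyocytes. Wnt2, a secreted signal of the same region, stood at 221 and 95.4 CPM against 4.14 and 2.69, log2 ratios 5.74 and 5.15. At an equal 5000 UMIs per cell, 48% and 27.3% of members held a Wnt2 UMI, against 1.45% and 1.27% of other cardiomyocytes and 0.219% and 0.163% of haemoglobin-rich barcodes. Without that adjustment 76.0% and 39.1% of members did. Of the 8 genes listed for the second heart field of the venous pole, 2 had 30 UMIs in members of both libraries (Wnt2 and Tbx5), and both were 2-fold higher. The filter reads the members' own UMIs and so favours genes high in members. Over all genes that passed it, 2.64% were 2-fold higher in both libraries.

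Of the membrane and channel genes, Cav1 and Cacna2d2 were among the genes highest in members. Cav1, the coat protein of caveolae, was at 114 and 125 CPM against 2.35 and 3.14, log2 ratios 5.59 and 5.31. Cacna2d2, a subunit of voltage-gated calcium channels, was at 269 and 236 CPM against 43.8 and 34.4. Kcna5, the atrial potassium channel of the ultrarapid current, stood at 29.2 and 56.6 CPM against 1.34 and 2.39, but with only 9 UMIs in the +/+ library it missed the 30-UMI filter. Hcn4, the channel of the pacemaker current, had 3 and 0 UMIs in members, so its level could not be read at this depth. Of 26 ion-handling genes 4 passed the filter on the members' side; over all 26, 1 was at least 2-fold higher (Cacna2d2) and 2 at least 2-fold lower (Pln and Kcne1).

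Further leading genes were Stard10, a lipid-transfer protein, at 143 and 169.8 CPM against 13.7 and 14.4; Mgp, an inhibitor of matrix calcification, at 153 and 63.1 against 4.37 and 3.66; and Plac8 at 305 and 112 against 8.51 and 11.8. Tmem163 (log2 ratios 2.99 and 3.25), Cpne5 (2.53 and 2.75), Spon1 (2.36 and 2.44), Fbxo32, an E3 ligase of muscle (3.39 and 2.14), Ptn, a secreted growth factor (3.97 and 2.42), Kdr, a receptor for vascular endothelial growth factor (3.84 and 2.51), and Gm15543 (3.14 and 3.29) complete the 15 with the largest ratios, ranked without the genes of the rule. Some of these rest on few cells: in the +/+ library 1 cell held 63 of 103 Ptn UMIs and 1 held 28 of 38 Gm15543 UMIs, and without those cells the log2 ratios were 2.68 for Ptn and 1.30 for Gm15543. A UMI of Mgp was found in 7 and 6 members and of Plac8 in 7 and 9, whereas Nr2f2 was found in 23 and 33. Kdr and Ptn did not separate the members from the other cardiomyocytes low in Myl2 in the F/F library, where their log2 ratios were 0.28 (-0.39 to 0.94) and 0.29 (-0.08 to 0.65). Wnt2, Nr2f2, Cav1, Tbx5 and Stard10 were higher than in those Myl2-low cells (63 and 87) as well.

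Genes of the ventricle were low. Myh7, the slow beta-myosin heavy chain, was at 68.2 and 97.0 CPM in members and 3126 and 2581 CPM in other cardiomyocytes, log2 ratios -5.52 and -4.73. In haemoglobin-rich barcodes, which should not make it, Myh7 was at 29.9 and 61.5 CPM. Pln, the inhibitor of the calcium pump of the sarcoplasmic reticulum, was at 55.2 and 58.2 CPM against 930.5 and 809. Irx4, a ventricular homeobox factor, had 0 UMIs in members of both libraries, at least 4.85-fold and 9.97-fold lower on a floor of 3 counts. Hey2, a ventricular repressor of the Notch pathway, had 1 and 0 UMIs, and Hand1, the paralogue of Hand2 in the left ventricle, 4 and 0.

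Nppb, a natriuretic peptide (log2 ratios -3.82 and -3.17), Mpped2 (-2.75 and -4.44), Slc25a13, a mitochondrial carrier (-2.67 and -3.86), Dlk1, a Notch-related membrane protein (-2.63 and -2.83), and Cited1, a transcriptional co-regulator (-2.96 and -2.70), were also among the 10 lowest. Against the Myl2-low cardiomyocytes, Cited1 and Nppb did not stand apart in the F/F library: the log2 ratios of Cited1 were -0.88 (-1.65 to -0.17) and -0.02 (-0.66 to 0.60) and those of Nppb 2.37 (0.15 to 5.00) and -0.55 (-1.56 to 0.37). Dlk1 was low against these cells too, with -5.38 (-7.26 to -4.01) and -4.97 (-6.19 to -3.97).

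Of 16 genes listed for working atrial muscle, 7 passed the 30-UMI filter on the members' side, and over the whole list 4 were at least 2-fold higher (Nr2f2, Tbx5, Stard10 and Mybphl) and none lower. Myl7 and Myl4, the light chains used in the rule, were already abundant in other cardiomyocytes: the log2 ratios were 0.76 and 0.91 for Myl7 and 0.37 and 0.35 for Myl4. Nppa was lower in members, 325 and 565 CPM against 841 and 808. Of 14 genes listed for sinus venosus and pacemaker, 4 passed and 3 were higher: Cacna2d2, Cpne5 and Igfbp5, which binds insulin-like growth factors, at 1717 and 1178 CPM against 341 and 312. Among 23 sarcomere genes, 6 of them genes of the rule and not counted, 2 were higher (Mybphl and Tpm2) and 2 lower (Myh7 and Myl3). Among 25 cardiac transcription factors 1 was higher (Tbx5) and 3 lower (Hand1, Hey2 and Irx4). Among 20 genes of retinoic acid signalling, 1 of them a gene of the rule and not counted, 1 was higher, Nr2f2. Over all genes with 30 UMIs in members the median of the smaller ratio was 0. S-phase genes summed to 315 and 501 CPM in members against 656 and 714 in other cardiomyocytes. G2 and M genes summed to 691 and 922 CPM in members against 781 and 852.

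**Figure D2:**
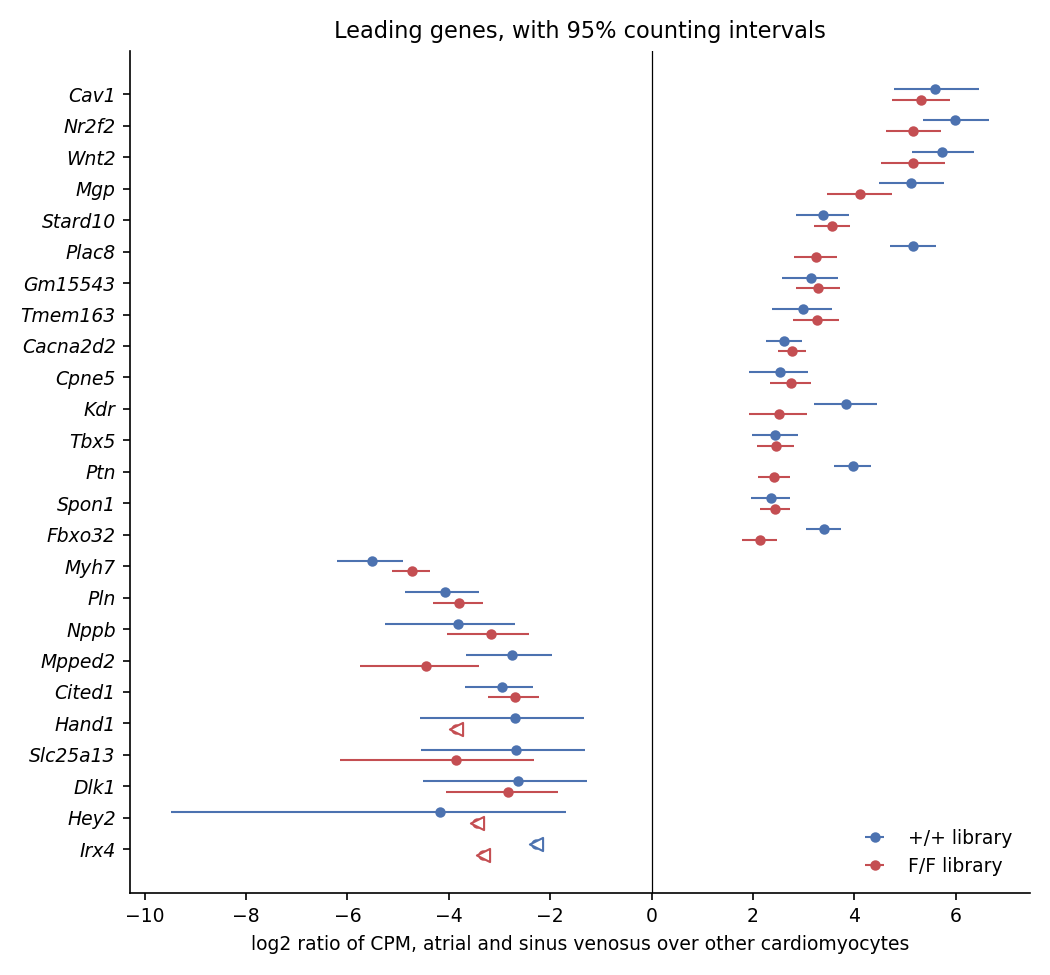
The 15 genes highest and the 10 lowest in members relative to other cardiomyocytes, leaving out the genes of the rule, with log2 CPM ratio on the x axis, 1 marker per library and bars for the 95% counting interval. Filled markers are measured ratios and open triangles are bounds for genes with 0 UMIs in members. Nr2f2, Wnt2 and Cav1 lie above 5 in both libraries, and Myh7 lies at -5.52 and -4.73.

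The members were not uniform, and Shox2 divided them. A Shox2 UMI was found in 18 of 25 members in the +/+ library (72%, 50.6 to 87.9) and 25 of 46 in the F/F library (54.3%, 39.0 to 69.1). Cells without one had to reach the trio threshold through Vsnl1 or Nr2f1, so the levels of those 2 genes across the division are partly fixed by the rule. Median depth was 9876 and 12669 UMIs in Shox2-positive members and 15443 and 13003 in Shox2-negative ones. At an equal 5000 UMIs per cell, Shox2 was seen in 0.364% and 0.346% of other cardiomyocytes and in 0.219% and 0% of haemoglobin-rich barcodes. The cells below the cardiomyocyte threshold were not part of this count.

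Nppa and Shox2 mark the opposite sides of this division, and the sequence at their start sites is shown because a T-box factor, Tbx5, and a nuclear receptor, Nr2f2, are among the 15 leading genes of the members. The windows run from 250 bases before to 50 bases after the gene start in RefSeq on GRCm38.p6, 5′ to 3′ on the gene's strand, with the motif match in capitals. Nppa lies on the plus strand at chr4:148000472-148000771 and Shox2 on the minus strand at chr3:66981722-66982021.
Nppa: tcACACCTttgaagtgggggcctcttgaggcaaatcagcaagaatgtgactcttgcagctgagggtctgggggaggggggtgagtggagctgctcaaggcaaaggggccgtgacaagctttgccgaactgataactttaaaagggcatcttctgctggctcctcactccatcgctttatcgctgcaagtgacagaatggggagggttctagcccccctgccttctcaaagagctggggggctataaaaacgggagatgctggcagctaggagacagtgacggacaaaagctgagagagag
Shox2: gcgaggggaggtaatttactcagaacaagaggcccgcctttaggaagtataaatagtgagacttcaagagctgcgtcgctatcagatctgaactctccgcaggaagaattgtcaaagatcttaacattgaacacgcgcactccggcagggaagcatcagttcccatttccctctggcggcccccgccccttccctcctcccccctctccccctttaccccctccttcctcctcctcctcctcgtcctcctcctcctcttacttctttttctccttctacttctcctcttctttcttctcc
The T-box motif AGGTGT, the nuclear receptor half-site AGGTCA and the GATA motif AGATAA were searched on both strands; AGGTGT and AGGTCA share the letters AGGT. The Nppa window holds 1 T-box match, ACACCT (the reverse complement), 248 bases before the start, and no match of the other 2 motifs. The Shox2 window holds none of the 3. Of 32851 promoter windows of this length, 13.7% hold the T-box letters, 16.3% the half-site and 11.2% the GATA letters. A match is a description of letters and no evidence of binding.

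Wnt2, Plac8 and Mgp were among the genes highest in Shox2-positive relative to Shox2-negative members, and Nppa, Acta1 and Myl1 were among the lowest. Of the 23 listed sarcomere genes, 6 belong to the rule and were not counted. Among the others, 5 were at least 1.5-fold lower and 2 at least 1.5-fold higher in Shox2-positive members of both libraries. Of 964 genes with 30 UMIs in Shox2-positive members of each library, 72 were at least 1.5-fold higher there in both libraries (7.47%), and of 482 with 30 UMIs in Shox2-negative members 15 were lower in Shox2-positive ones (3.11%). Nppa stood at 4.91 and 21.2 CPM in Shox2-positive and 947 and 1188 CPM in Shox2-negative members, log2 ratios -7.59 (-12.91 to -5.08) and -5.81 (-7.14 to -4.75). The Shox2-positive level was close to that in haemoglobin-rich barcodes, 20.4 and 18.0 CPM. An Nppa UMI was found in 1 of 18 and 3 of 25 Shox2-positive cells and in 4 of 7 and 12 of 21 Shox2-negative cells.

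Acta1, skeletal alpha-actin, which early heart muscle also makes, was at 0 and 66.6 CPM in Shox2-positive and 392 and 1032 CPM in Shox2-negative members. Myl1, a fast-type essential light chain, was at 206 and 666 against 1722 and 2001 CPM. Casq1, a calcium-binding protein of the sarcoplasmic reticulum (log2 ratios -2.07 and -1.35), Smpx, a small striated-muscle protein (-2.04 and -1.23), Mob1b, of the Hippo pathway (-1.45 and -1.06), Pam, an enzyme that amidates peptides and is abundant in atrial granules (-0.96 and -1.04), and Gm15543 (-4.51 and -0.95) were the other genes lowest in Shox2-positive members. A single Shox2-negative cell of the +/+ library held 28 of 38 Pam, 27 of 42 Mob1b and 28 of 35 Gm15543 UMIs there. Without the cell richest in each gene, the +/+ log2 ratio of Pam was 0.71, of the opposite sign, that of Mob1b was -0.22 and that of Gm15543 -2.44. Nppa, Acta1 and Myl1 were still lower in Shox2-positive members of both libraries in that setting. Gja5, the atrial connexin Cx40, had a UMI in 4 of 7 and 8 of 21 Shox2-negative and 3 of 18 and 2 of 25 Shox2-positive cells.

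On the Shox2-positive side Wnt2 was at 314 and 163 CPM, against 38.3 and 17.4 CPM in Shox2-negative members. Plac8 was at 437 and 206 against 47.8 and 3.47 CPM. In the +/+ library 3 of 25 members held 81 of 94 Plac8 UMIs, and in the F/F library 3 of 46 held 49 of 69. Mgp was at 231 and 118 CPM, with 0 UMIs in Shox2-negative members of both libraries, hence at least 8.04-fold and 11.3-fold higher. Smoc2, a matrix protein of the sinus node region, stood at 226 and 75.7 CPM and likewise had 0 UMIs on the other side, being seen in 9 of 18 and 8 of 25 Shox2-positive cells.

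Ptn (2.61 and 2.80), beta-actin Actb (2.79 and 2.26), the galectin Lgals1 (2.56 and 2.18), Itm2a (2.44 and 2.19) and the microfibril protein Mfap2 (2.26 and 2.39) followed, as log2 ratios. The Shox2-negative group of the +/+ library holds 7 cells, and when every cell was thinned to 5000 UMIs, which also moves cells that lose their Shox2 UMI, Ptn, Actb and Mfap2 no longer differed the same way in both libraries. Bmp4, a signal of the sinus venosus and outflow tract, had a UMI in 14 of 18 and 17 of 25 Shox2-positive and 2 of 7 and 3 of 21 Shox2-negative cells. Tbx18 was seen in 7, 7, 0 and 2 cells of the same groups. Tbx5 (log2 ratios 0.40 and -0.41) and Nr2f2 (0.86 and 0.20) differed less, so both sides carried the atrial regulators.

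Mesenchymal markers followed Shox2. They summed to 393 and 315 CPM in Shox2-positive and 47.8 and 13.9 CPM in Shox2-negative members. Col1a1, a fibrillar collagen, was at 138 and 139 against 0 and 3.47 CPM, and the epicardial factor Tcf21 at 88.4 and 33.3 against 0 and 0. Their part in the higher matrix genes was not tested. Grouping cells by 2 or more UMIs of Wnt2, Osr1 and Smoc2 together, or of Nppa and Acta1 together (genes chosen after their values were seen), placed 18 +/+ cells on the first side, 5 on the second, none on both and 2 on neither; in the F/F library the counts were 17, 13, 2 and 14.

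**Figure D3:**
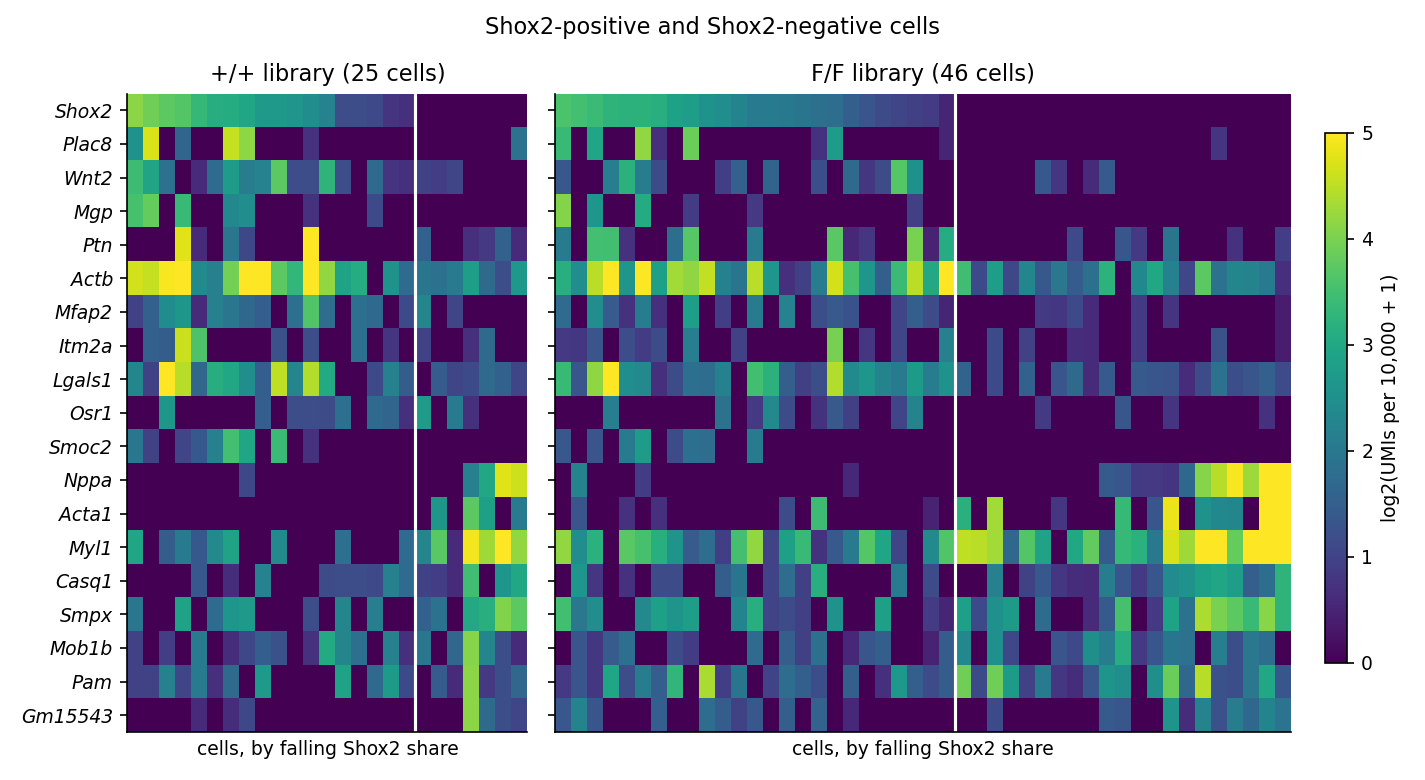
Heat map of the 25 members of the +/+ library and the 46 of the F/F library, 1 column per cell in order of falling Shox2 share (Shox2-negative cells in order of rising Nppa UMIs) and 1 row per gene, coloured by log2(UMIs per 10,000 + 1). The white line parts the 18 and 25 Shox2-positive cells on the left from the Shox2-negative cells on the right; Wnt2 has a UMI in 16 of 18 and 14 of 25 cells on the left, Plac8 in 6 and 8 of them, and Nppa in 4 of 7 and 12 of 21 cells on the right.

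The comparison of the genotypes asks whether the deletion of Hand2os1 is accompanied by a different Hand2 level or programme in these cells. The deleted transcript, annotated as Gm28063 in the single-cell table, had 0 UMIs in members of both libraries and too few elsewhere to check the labels (1 UMI in the +/+ and 9 in the F/F library as a whole). Hand2, a basic helix-loop-helix factor of the second heart field, right ventricle and outflow tract, was expressed in members at 139.6 and 113 CPM, with 43 and 70 UMIs. Other cardiomyocytes had 58.7 and 92.8 CPM. Per cell, Hand2 ran from 0 to 7 UMIs (median 1) in the +/+ library and from 0 to 7 (median 1) in the F/F library. At 5000 UMIs per cell it was seen in 36% and 38.6% of members, against 1.42% and 3.59% of haemoglobin-rich barcodes.

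The log2 ratio of F/F over +/+ for Hand2 was -0.30 (-0.87 to 0.28) in members and 0.66 (0.51 to 0.81) in other cardiomyocytes. The member interval contains 0 and lies below that of the other cardiomyocytes; with 1 library per genotype that difference was not tested. Within the members it was -0.76 (-1.61 to 0.09) in Shox2-positive and -0.06 (-0.89 to 0.84) in Shox2-negative cells. In other cardiomyocytes with low Myl2 it was 0.36 (-0.05 to 0.77) and in those with high Myl2 0.72 (0.56 to 0.88). Among the genes flanking Hand2, Hmgb2, a chromatin protein of dividing cells, was the only one with 30 UMIs in members of both libraries; its log2 ratio was 0.76 (0.50 to 1.02) in members and 0.41 (0.36 to 0.45) in other cardiomyocytes.

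Across all 1442 genes with 30 UMIs in members of both libraries, 35 were at least 1.5-fold higher in the F/F library (2.43%) and 144 at least 1.5-fold lower (9.99%). The 30-UMI filter asks for a higher level in the smaller +/+ pool (97.4 CPM, against 48.5 in F/F), which favours genes lower in F/F; with a mean of at least 100 CPM over both libraries instead, 48 of 1354 were higher and 99 lower. In other cardiomyocytes 18 of the same 1442 genes passed 1.5-fold (1.25%), and none of the 35 and 11 of the 144 were among them. The median log2 ratio was -0.03 in members and 0.01 in other cardiomyocytes. Members are far fewer than other cardiomyocytes, and how much of this gap is sampling of 25 and 46 cells was not tested.

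The genes highest in F/F members included 4 of the contractile apparatus, Acta1, Myl3, Tnnt1 and Myl1. Acta1 stood at 133 and 516 CPM, and its log2 ratio was 1.96 (1.48 to 2.46) in members and -0.22 (-0.27 to -0.17) in other cardiomyocytes. It was uneven over cells: 3 cells held 252 of 319 UMIs in the F/F library and 3 held 35 of 41 in the +/+ library. Myl3, the ventricular and slow essential light chain, was at 509.6 and 1546 CPM, log2 ratio 1.60 (1.36 to 1.85), with a median of 1 UMI per +/+ cell and 13.5 per F/F cell. Myl3 was seen in both sides of the division, with log2 ratios of 1.68 in Shox2-positive and 1.32 in Shox2-negative cells. In other cardiomyocytes it was -0.01 (-0.03 to 0.01). Free Myl3 RNA also differed between the libraries, at 85.1 and 162 CPM in haemoglobin-rich barcodes, as did Myl2 at 125 and 246 CPM; their part in the members' difference was not tested.

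Further genes of this group were Tnnt1, slow skeletal troponin T (log2 ratio 0.91 in members, 0.04 in other cardiomyocytes), Myl1 (0.84 in members, 0.10 in other cardiomyocytes) and Nppa (0.80 in members, -0.06 in other cardiomyocytes), of which 3 cells held 243 of 349 UMIs in the F/F and 93 of 100 in the +/+ library. Of the 16 sarcomere genes with enough UMIs, 5 were at least 1.5-fold higher in F/F members (Acta1, Myl3, Tnnt1, Myl1 and Actn2) and none lower, with a median log2 ratio of 0.10. The rest of the 10 highest were the replication-dependent histone Hist1h2ap (0.94 in members, 0.37 in other cardiomyocytes), the mitochondrial proteins Dnajc15 (0.89 in members, 0.10 in other cardiomyocytes) and Mrpl23 (0.85 in members, 0.02 in other cardiomyocytes), Fam162a (0.86 in members, -0.05 in other cardiomyocytes) and the LIM protein Crip1 (0.83 in members, 0.24 in other cardiomyocytes).

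The genes lowest in F/F members included several of the Shox2-positive side. Wnt2 stood at 221 and 95.4 CPM, and its log2 ratio was -1.21 (-1.74 to -0.69) in members and -0.62 (-1.33 to 0.08) in other cardiomyocytes. Plac8 had a ratio of -1.45 (-1.92 to -0.99) in members and 0.47 (0.07 to 0.89) in other cardiomyocytes, Mgp -1.27 (-1.92 to -0.63) and -0.25 (-0.89 to 0.39), and Itm2a -1.22 (-1.79 to -0.65) and -0.20 (-0.26 to -0.15). These too were uneven: 3 cells held 34 of 47 (+/+) and 36 of 39 (F/F) Mgp UMIs. Without the richest cell of each library the ratio was -1.26 for Plac8, -1.82 for Mgp and -1.35 for Wnt2. Meg3, an imprinted non-coding RNA, had -1.38 (-1.70 to -1.05) in members and -0.02 (-0.08 to 0.04) in other cardiomyocytes. Fbxo32 (-1.25 in members, 0.01 in other cardiomyocytes) and 6330403K07Rik (-1.18 in members, 0.15 in other cardiomyocytes) had the same pattern. The mitochondrial gene mt-Atp8 (-1.79 in members, -1.90 in other cardiomyocytes), the acetyltransferase subunit Naa15 (-1.48 in members, -1.09 in other cardiomyocytes) and Larp7, a 7SK RNA-binding protein (-1.22 in members, -0.84 in other cardiomyocytes), were lower in both.

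The share of Shox2-positive cells, given above, was 72% of members in the +/+ library and 54.3% in the F/F library, with overlapping intervals; its part in these values was not tested. Of the 144 genes lower in F/F, 28 (19.4%) were also higher in Shox2-positive members and 1 was lower. Of the 35 higher in F/F, 5 (14.3%) were lower in Shox2-positive members and none higher. Over all 1442 genes compared between the libraries, 4.99% were higher and 1.04% lower in Shox2-positive members; both comparisons use the same cells, so this is a description. Within Shox2-positive cells alone the log2 ratio was -0.94 (-1.49 to -0.40) for Wnt2, -1.44 (-1.82 to -1.07) for Meg3, 1.69 (1.21 to 2.20) for Myl1 and 2.11 (-0.85 to 7.60) for Nppa. Shox2-negative cells held 99 of 100 (+/+) and 342 of 349 (F/F) Nppa UMIs, and 180 of 222 and 576 of 796 Myl1 UMIs. In those cells, by the CPM given above, Nppa and Myl1 were less than 1.5-fold higher in F/F. Shox2 itself, a gene of the rule, had a log2 ratio of -0.92 (-1.27 to -0.57) in members. The ratio of Nr2f2 was -0.75 (-1.24 to -0.27), and that of Tbx5 -0.26 (-0.78 to 0.28). Of 4 sinus venosus and pacemaker genes with enough UMIs 1 was lower (Bmp4) and none higher, and of 7 working atrial genes 1 was higher (Nppa) and 1 lower (Nr2f2).

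**Figure D4:**
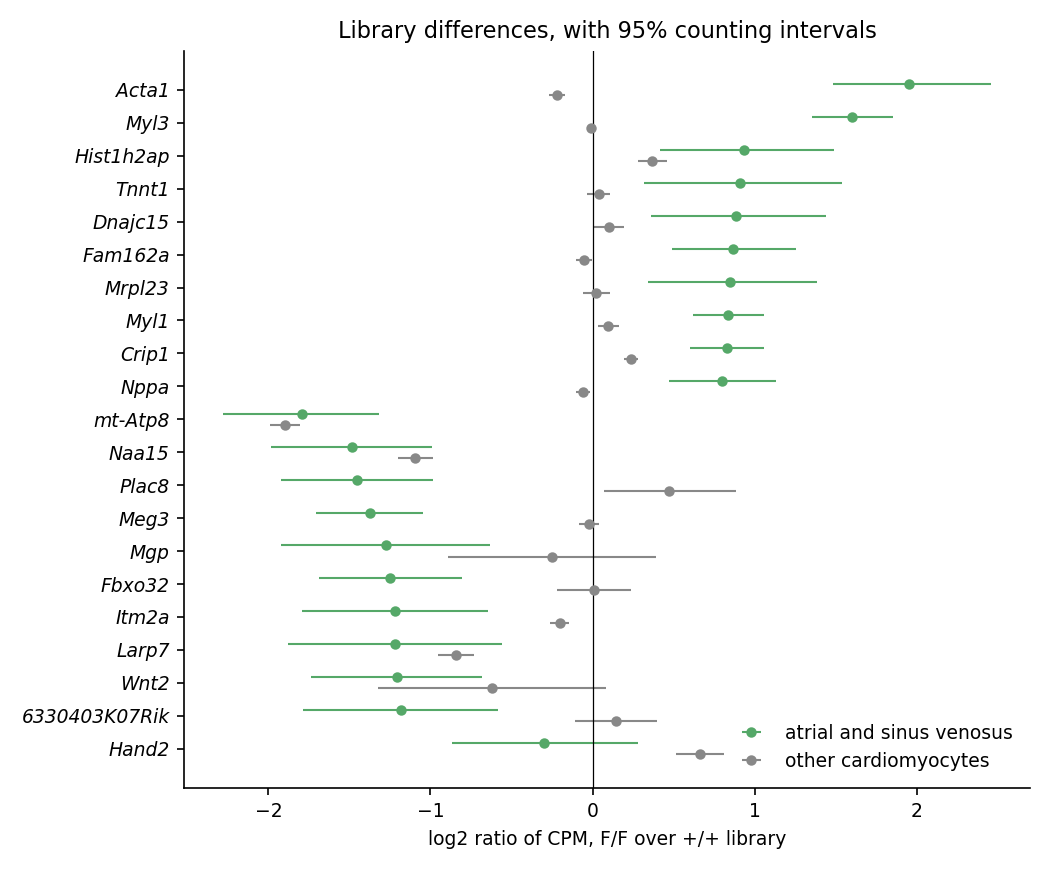
Log2 ratio of F/F over +/+ CPM for Hand2 and for the 10 genes highest and the 10 lowest in members, with bars for the 95% counting interval, in members and in other cardiomyocytes. Hand2 lies at -0.30 in members and 0.66 in other cardiomyocytes, and Acta1 at 1.96 and -0.22.

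The bulk libraries give these genes a replicate error in whole hearts, in FPKM (fragments scaled by transcript length and library size, a unit inferred from the values). In bulk tissue, fewer cells of a type and less RNA per cell cannot be told apart. Hand2os1, under the name LOC102636514, was listed at 0 in all 6 hearts at E11.5, F/+ included, so it leaves the genotypes of those hearts unchecked. In the E16.5 libraries it was at 0.81, 0.37 and 1.4 FPKM in the F/+ ventricles and at 0 in the 3 F/F ventricles. At E11.5 Shox2 was at 5.69, 16.4 and 6.9 FPKM in the F/+ hearts and 13.2, 5.2 and 9.75 in the F/F hearts. Nr2f1 was at 14.8, 19.5 and 11.4 and 14.7, 12.0 and 10.1, and Vsnl1 at 8.95, 5.91 and 9.23 and 12.1, 4.35 and 8.31. The groups overlap in all 3.

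Between F/F and F/+ hearts at E11.5, limma called 1 of 11491 genes (0.00870%) at an adjusted p of 0.05, Mir6236, which is no gene of these cells' lists, while 257 were higher and 245 lower at an unadjusted p of 0.05. Hand2 was at 58.6, 77.5 and 86.7 FPKM in F/+ and 75.9, 79.1 and 69.2 in F/F, a limma log2 difference of 0.03 ± 0.18 (SE), adjusted p = 0.999. None of the 13 tested genes of the 15 that led the members was called (median log2 difference 0.09, against 0.02 over all genes). Wnt2 was at 12.6, 11.9 and 10.2 FPKM in F/+ and 9.71, 8.55 and 9.1 in F/F. Every F/F heart lay below every F/+ heart, but the limma difference, -0.31 ± 0.21 (SE), adjusted p = 0.999, did not pass. Nr2f2, at 27.7, 19.4 and 23.8 and 18.0, 21.4 and 17.3, overlapped between the groups. Ptn, at 131, 179 and 177 and 102, 96.7 and 77.4, had a limma log2 difference of -0.81 ± 0.18 (SE), adjusted p = 0.697.

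The contractile genes higher in F/F members, and Nppa, were not called in whole hearts either. Acta1 was at 218, 320.4 and 206 FPKM in F/+ and 327, 337 and 361 in F/F (limma log2 difference 0.49 ± 0.18 (SE), adjusted p = 0.999), Myl3 was at 1202, 1424 and 1035 and 1492, 1528 and 1642 with a limma difference of 0.36 ± 0.16 (SE), adjusted p = 0.999, and Nppa had a limma difference of 0.35 ± 0.29 (SE), adjusted p = 0.999. Every F/F heart lay above every F/+ heart for Acta1 and Myl3. Of the 23 sarcomere genes none was called, 8 were higher at an unadjusted p of 0.05 and none lower, and the median log2 difference was 0.24, against 0.02 over all genes. Of the 8 second heart field genes of the venous pole 7 were tested and 6 were lower in F/F, with a median log2 difference of -0.95 and none called. Gli1, at 10.15, 2.21 and 0.97 FPKM in F/+ and 0.55, 2.92 and 0.6 in F/F, was the gene at this median. Its value in replicate 1 of F/+ stood far above the others, so the median leans on that heart. Osr1 was at 29.1, 14.4 and 9.09 FPKM in F/+ and 5.03, 4.32 and 5.19 in F/F, with every F/F heart below every F/+ heart and a limma log2 difference of -1.52 ± 0.36 (SE), adjusted p = 0.85; in members its F/F over +/+ log2 ratio was -1.30 (-2.11 to -0.51). Foxf1, a forkhead factor of splanchnic mesoderm, was at 21.7, 0.99 and 1.04 FPKM and 0.73, 2.65 and 0.15, and replicate 1 of F/+ stood far above the others. Leaving out each heart in turn, its log2 difference ran from -1.86 to -0.06. Haemoglobin took from 10.4% to 29.7% of the FPKM in these hearts; its part in these values was not tested.

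The E16.5 libraries were from ventricle, so they show which of the members' genes are scarce where atrium and sinus venosus were not taken; stage and tissue cannot be told apart here. Of 11405 genes tested between F/+ libraries, limma called 17.7% higher and 31.0% lower at E16.5, with a median log2 difference of -0.18 over all genes. All 3 trio genes fell: Shox2, at 0.75, 0.56 and 0.71 FPKM in the E16.5 ventricles, by a limma log2 difference of -2.54 ± 0.35 (SE), adjusted p = 5.57e-04; Vsnl1, listed at 0 in all 3, with -3.15 ± 0.24 (SE), adjusted p = 3.76e-05; and Nr2f1, at 1.28, 1.55 and 1.05, with -2.80 ± 0.23 (SE), adjusted p = 4.86e-05. The 3 E11.5 hearts lay above the 3 ventricles for each.

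Of the 13 tested leading genes 9 fell and 2 rose (median log2 difference -0.94). Wnt2, at 0.81, 0.27 and 1.13 FPKM, fell by a limma log2 difference of -2.88 ± 0.24 (SE), adjusted p = 5.43e-05, and Nr2f2, at 10.96, 10.64 and 9.46, by -1.10 ± 0.17 (SE), adjusted p = 9.27e-04. Cav1 rose from 8.47, 8.9 and 11.3 FPKM in the hearts to 94.1, 80.1 and 71.3 in the ventricles, and Mgp from 34.5, 4.75 and 28.4 to 103, 123 and 116. Both are also made by cells of vessels. The 16 working atrial genes held 13 that fell and none that rose (median -0.99); Mybphl, a myosin-binding protein of atrial muscle, went from 25.3, 36.5 and 31.7 FPKM to 0.89, 0.2 and 0.5, a limma log2 difference of -4.40 ± 0.23 (SE), adjusted p = 6.55e-06.

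Of 11 tested sinus venosus and pacemaker genes 7 fell and none rose (median -1.19), and of 7 second heart field genes 6 fell. Of the 10 genes lowest in members, 4 rose and 5 fell. Myh7 rose from 625, 779 and 247 FPKM to 3124, 3248 and 3719.9, and Hey2 (limma log2 difference 1.88 ± 0.13 (SE), adjusted p = 2.95e-05) and Irx4 (1.27 ± 0.29 (SE), adjusted p = 0.0068) rose too. Hand2 was at 52.92, 49.37 and 45.99 FPKM in the ventricles, with a limma log2 difference of -0.56 ± 0.16 (SE), adjusted p = 0.0196. Haemoglobin took 0.65% to 2.42% of the FPKM in the E16.5 libraries, far less than at E11.5, and its part was not tested.

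**Figure D5:**
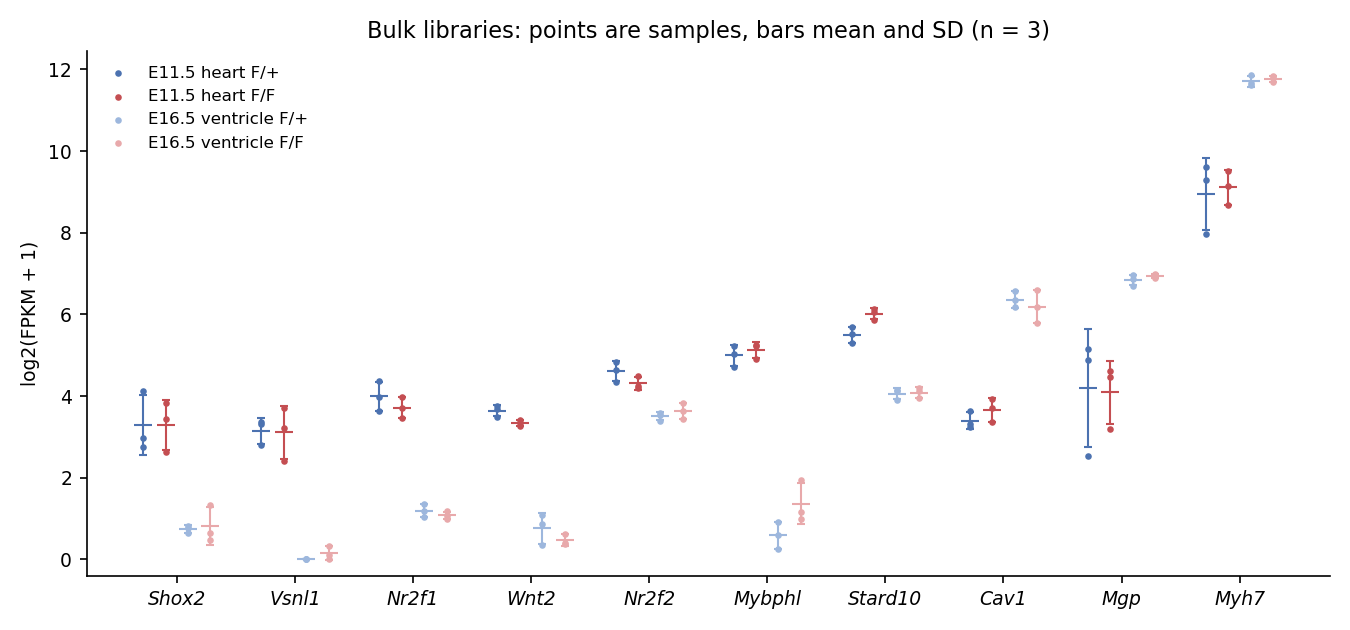
Log2(FPKM + 1) of 10 genes in E11.5 hearts and E16.5 ventricles, F/+ and F/F (3 libraries each); each point is 1 library and the bars are mean and SD (n = 3). Shox2, Vsnl1 and Nr2f1 are at or below 1.55 FPKM in every E16.5 ventricle and overlap between genotypes at E11.5, while Cav1, Mgp and Myh7 are higher at E16.5.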

How the data were processed

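Single-cell values are whole UMI counts per gene and barcode, deposited by the authors; per the submitters' processing notes Cell Ranger and mm10 were used. Bulk values are FPKM as deposited by the authors, a unit inferred from the values; the notes name TopHat, TopHat2 2.0.11, CASAVA and mm9, and the quantifier is not given in the sources used here, so bulk depth is unknown. The single-cell libraries hold 38302758 (+/+) and 51432290 (F/F) UMIs.

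The members and gene lists were chosen with earlier results of these data known. Barcodes were classified by the rule given above, UMIs were summed per class and library (Python 3.11.15, numpy 2.4.6), and ratios of CPM were given exact intervals conditional on the total (scipy 1.17.1); all single-cell intervals cover counting error only. With 1 library per genotype no test was made. Genes needed 30 UMIs in each library on the higher side, and a count of 3 was the floor. Counts of genes used thresholds of 2-fold against other cardiomyocytes and 1.5-fold elsewhere. Doublets were scored with scrublet through scanpy 1.11.5 and were kept in the main values. Named genes were the 15 highest and 10 lowest against other cardiomyocytes, the 10 highest and 10 lowest between libraries, the 8 highest and 8 lowest between Shox2-positive and Shox2-negative members, genes of the rule, Hand2 and its neighbours, and the lists; other names were chosen after their values were seen.

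Bulk values were tested with limma 3.58.1 (R 4.3.3, intensity trend) on log2(FPKM + 1), keeping genes whose mean reached 1 FPKM, with Benjamini-Hochberg adjustment over all genes tested. Fold changes on this scale understate low genes. Nothing says that the bulk replicates came from separate litters, so p-values measure the spread between these samples. Identical lines were merged (24525 lines, 24025 genes). The 8-week libraries were not used here. The scripts were tested on simulated data. Alternatives were other trio, Myl2 and UMI limits, thinning to 5000 UMIs, removal of doublets, CPM without haemoglobin and mitochondrial genes, another pseudocount, no filter, the replicate number as a block, all embryonic groups in 1 fit and leaving out each library.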

Additional observations from a re-analysis of the deposited data

Results flagged for a closer look

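The F/F over +/+ ratios of Hand2 and of the named genes highest and lowest in F/F members were compared with those in other cardiomyocytes. Among these genes, 8 had ratios of opposite sign in the members and in the other cardiomyocytes. With 1 library per genotype these differences were not tested. The share of opposite signs over all genes compared is not given here, so whether 8 is many was not tested. Hand2 had a log2 ratio of -0.30 in members and 0.66 in other cardiomyocytes. Acta1 was at 1.96 and -0.22, Myl3 at 1.60 and -0.01, Fam162a at 0.86 and -0.05, and Nppa at 0.80 and -0.06. Plac8 was at -1.45 and 0.47, Fbxo32 at -1.25 and 0.0063, and 6330403K07Rik at -1.18 and 0.15. For Myl3, Fam162a, Nppa and Fbxo32 the ratio in other cardiomyocytes was close to 0, so there the size differs and the sign says little. The Hand2 interval in members, given above, contains 0, so its sign in members is open.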

How the results depend on the processing

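No share, count, Hand2 ratio or named gene's smaller ratio of the 2 libraries took the opposite sign under the alternatives run, but Ptn, Actb and Mfap2 under thinning, and Pam without its richest cell, no longer had 1 sign in both libraries. The median log2 ratio of F/F over +/+ over all genes was -0.03, and 0.02 thinned, 0.06 at 100 UMIs and 0.01 at a mean of 100 CPM. Of the alternative values of the shares, counts and Hand2 ratios 94 stayed close to the main value and 14 did not. Thinning each cell to 5000 UMIs, which lowers the number of genes that can be read, gave an F/F share of 0.938%, 10 genes higher and 62 lower against other cardiomyocytes, 13 higher and 31 lower in F/F members, and 13 higher and 2 lower in Shox2-positive members. Asking for 100 UMIs gave 5 genes higher against other cardiomyocytes, and 7 higher and 16 lower in F/F members. The Hand2 ratio in members ran from -0.76 (Shox2-positive members alone) to -0.02 (members with a Nr2f1 UMI, a setting chosen after seeing the data). Of the named genes' alternative values 327 stayed close and 38 did not, 26 of them under thinning and 11 without the cell richest in the gene, a setting added after seeing the data. Depth limits genes under about 97.4 CPM in the +/+ and 48.5 CPM in the F/F members, and bulk depth is unknown.

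The replicate numbers did not pair the bulk samples: same-numbered E11.5 libraries had correlations of their deviations of -0.036, -0.017 and 0.082. With the replicate number as a block, 2 genes were called at E11.5 (1 without the block), 5252 between E16.5 and E11.5 (5552 without), with 21 atrial and sinus venosus list genes lower. Leaving out 1 E11.5 library called 1 to 2 genes, the 2 without F/+ replicate 3. All 4 embryonic groups in 1 fit called 11 at E11.5; the cause was not tested. Without a filter 13 atrial and sinus venosus list genes were lower at E16.5 (20 with it); the cause was not tested.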
